A study of Rattus norvegicus with 4 samples.

Results

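The genes described here encode subunits of the NMDA receptor and scaffold proteins of the postsynaptic density, measured in cultured rat cortical neurons that carried an shRNA against PHF6 or a control shRNA. The 10 members were chosen by name as NMDA receptor subunits (Grin1, Grin2a, Grin2b, Grin2d, Grin3a), membrane-associated guanylate kinases of the PSD-95 family (Dlg2, Dlg4) and Shank scaffolds (Shank1, Shank2, Shank3). All 10 were found among the 17245 genes that could be named, and each had a single probe set annotated to it alone. The rule that names them uses no measured value, though it was written with earlier results of these data known.

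The arrays hold total RNA from cortical neurons of Sprague Dawley rat embryos at embryonic day 18, taken 5 days after infection with pLL3.7 lentivirus. In 2 arrays the virus carried PHF6shRNA-2, a hairpin directed at PHF6, a zinc-finger protein of the nucleus that is altered in an X-linked form of intellectual disability. In the other 2 arrays it carried a control shRNA, and the genotype of those neurons is labelled wild type. The comparison asks which transcripts differ when neurons carry the PHF6 hairpin. Both PHF6 shRNA arrays used the same hairpin, so PHF6 loss and other effects of that hairpin cannot be told apart. The share of infected cells is not given in the sources used here, and the titles call the arrays of a group biological duplicates without saying whether these were separate cultures or animals, so p-values measure the spread between these arrays. Where 2 values are given for a group, that of duplicate 1 comes before that of duplicate 2.

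NMDA receptors of GluN1 and GluN2 subunits are glutamate-gated channels that pass calcium. These need both glutamate and a co-agonist, glycine or D-serine, to open. Every NMDA receptor holds obligatory GluN1 subunits, from Grin1. Its other subunits are GluN2, from Grin2a to Grin2d, or GluN3, from Grin3a and Grin3b. In the forebrain GluN2B dominates before birth, and GluN2A is added as synapses mature. The tails of GluN2A and GluN2B bind the PDZ domains of PSD-95, the product of Dlg4, and of PSD-93, the product of Dlg2. Proteins of the Dlgap family link these to the Shank proteins, which connect on to Homer and the actin cytoskeleton. Changes in SHANK3 and GRIN2B are known in human neurodevelopmental disorders.

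None of the 10 members passed the adjusted threshold in either direction, and neither did any of the 17245 genes tested (limma with Benjamini-Hochberg adjustment, a background of 0% called). That count for all genes was not stable. It was 90 without PHF6 shRNA duplicate 2, 2 without PHF6 shRNA duplicate 1, and 909 in a fit that took the replicate number as a block, and 0 members passed in each of these fits. Without adjustment, 1862 genes had p under 0.05, 10.8% of those tested, and 1 of the 10 members, Shank3, was among them. The members' differences ran from -0.24 (Shank3) to 0.20 (Grin2a) log2 units, PHF6 shRNA minus control shRNA, so the largest measured fold was 1.18. All 10 lay between the 5th and the 95th percentile of all genes, which stood at -0.32 and 0.24. The 95% intervals of 9 members excluded a 1.5-fold difference in measured signal in either direction, and that of Grin2a reached 1.54-fold higher. For Grin2d and Grin3a, which lay near background, measured signal may understate a difference in transcript. Signal was lower in 6 members and higher in 4, with a median of -0.071, against a median of -0.0066 over all genes, of which 52.3% were lower. With only genes above background on at least 2 arrays, the medians were -0.013 for the 9 members left and -0.039 for all genes left. Both PHF6 shRNA arrays lay below both control shRNA arrays for 4 members, Grin3a, Dlg4, Shank2 and Shank3, where 21.7% of all genes did so. Both lay above for 1 member, Dlg2, where 16.0% of all genes did so. In either direction this makes 5 of 10 members, beside 37.8% of all genes.

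**Figure D1:**
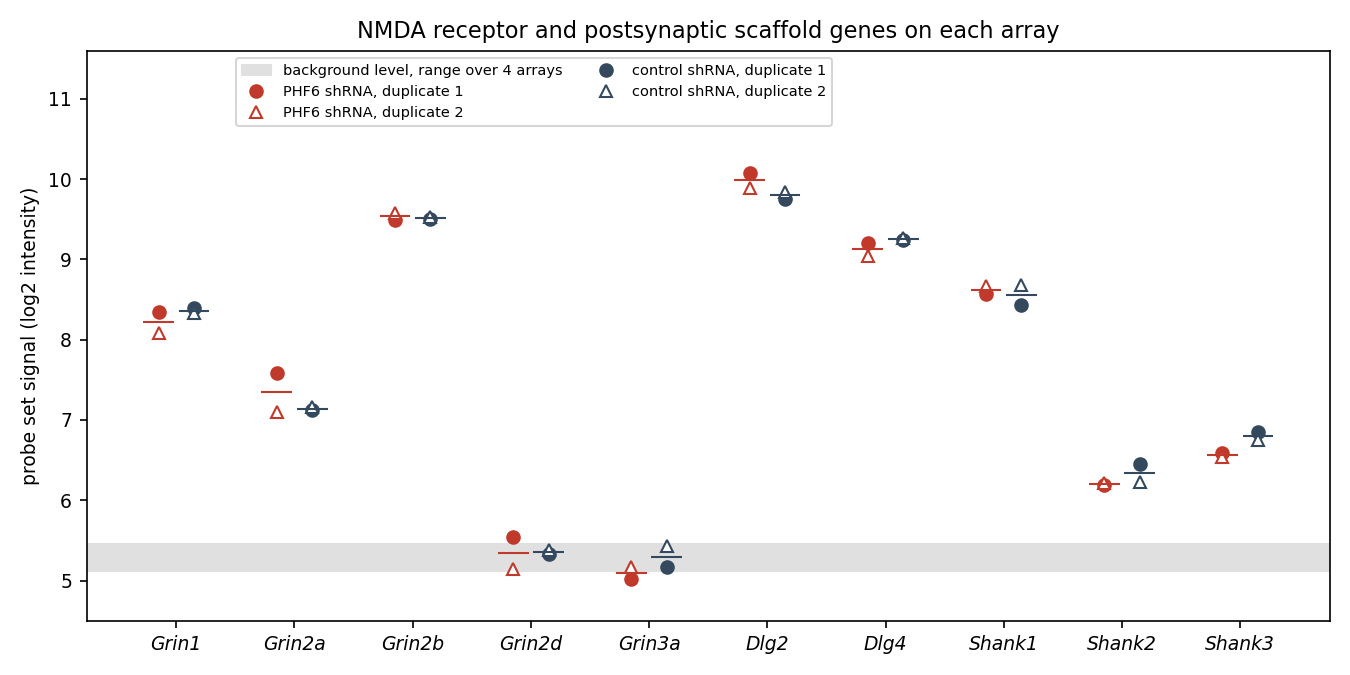
Probe set signal (log2 intensity, vertical axis) of the 10 genes on each array, with PHF6 shRNA left of control shRNA, filled circles for duplicate 1, open triangles for duplicate 2, and a line at each group's mean. The grey band spans the background level of the 4 arrays. Grin2d and Grin3a lie in or near the band, and the groups separate for Grin3a, Dlg2, Dlg4, Shank2 and Shank3.

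A few facts on the arrays bear on these values. The median probe set intensity lay between 40.9 and 41.7 on all 4 arrays. Background, taken from 1272 olfactory and vomeronasal receptor genes as their 95th percentile, was 42.6 and 36.3 on the PHF6 shRNA arrays and 43.7 and 34.7 on the control shRNA arrays, duplicates 1 and 2 in that order. In all, 8 members exceeded it on every array. Phf6 itself, the targeted gene, read 34.4 and 31.3 on the PHF6 shRNA arrays, against 32.8 and 34.3 on the control shRNA arrays. It was above background on 0 of the 4, so its probe set does not check the labels. All 8 neuron markers measured were above background on all 4 arrays. Of 7 microglia markers, Aif1, Itgam, P2ry12 and Csf1r were above it on none, Cd68 on 1, and Cx3cr1 and Tmem119 on all 4. On all 4 arrays 5 of 8 astrocyte, 1 of 7 oligodendrocyte lineage and 2 of 6 endothelial and fibroblast markers exceeded background.

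Grin1, the subunit that every NMDA receptor contains, had intensities of 325 and 272 on the PHF6 shRNA arrays, against 337 and 322 on the control shRNA arrays. PHF6 shRNA duplicate 2 was the low array, and the other 3 lay close together, so the groups overlapped. The difference was -0.15 ± 0.11 log2 units (SE, n = 2 each), with a 95% interval from -0.43 to 0.13 (limma adjusted p = 0.80). Without PHF6 shRNA duplicate 2 it was -0.021.

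Grin2b encodes GluN2B, the subunit of immature cortical neurons. It read 723 and 764 in PHF6 shRNA neurons, against 727 and 739 in control shRNA neurons. Both control values fell inside the range of the PHF6 shRNA values, and the difference was 0.019 ± 0.084 log2 units (95% interval -0.19 to 0.23, limma adjusted p = 0.995). As a ratio of PHF6 shRNA to control shRNA, that interval ran from 0.876 to 1.17.

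Grin2a encodes GluN2A, the subunit of maturing synapses. Its intensities were 192 and 137 on the PHF6 shRNA arrays, against 139 and 143 on the control shRNA arrays. A single array, PHF6 shRNA duplicate 1, stood apart, while its partner of the same group was the lowest of the 4. The difference of 0.20 ± 0.17 log2 units (limma adjusted p = 0.83) therefore came with an SD of 0.34 between the PHF6 shRNA arrays, against 0.028 between the control shRNA arrays. Without PHF6 shRNA duplicate 1 the difference was -0.039, and without duplicate 2 of that group it was 0.45. The change in the ratio of Grin2a to Grin2b signal within an array was 0.18 log2 units, 0.47 on PHF6 shRNA duplicate 1 and -0.099 on duplicate 2, each against the control mean. The groups overlapped in this ratio (2-sided exact permutation p = 1.00, where 2 arrays against 2 cannot give less than 0.333).

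Grin2d and Grin3a encode subunits that form receptors with weaker magnesium block, and GluN3A also lowers calcium entry. Both were dim. Grin2d read 46.5 and 35.4 on the PHF6 shRNA arrays, against 40.3 and 41.5 on the control shRNA arrays, and was above background on 2 of the 4 arrays. Its difference was -0.013 ± 0.14 (limma adjusted p = 0.998), with both control values inside the range of the PHF6 shRNA values. Grin3a read 32.4 and 35.8, against 35.9 and 43.0, and was above background on control shRNA duplicate 2 alone. The groups did not overlap, though the nearest arrays read 35.8 (PHF6 shRNA) and 35.9 (control shRNA), and the difference was -0.20 ± 0.12 (limma adjusted p = 0.67). The fold of these dim genes is not exact, since their signal lay near background.

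**Figure D2:**
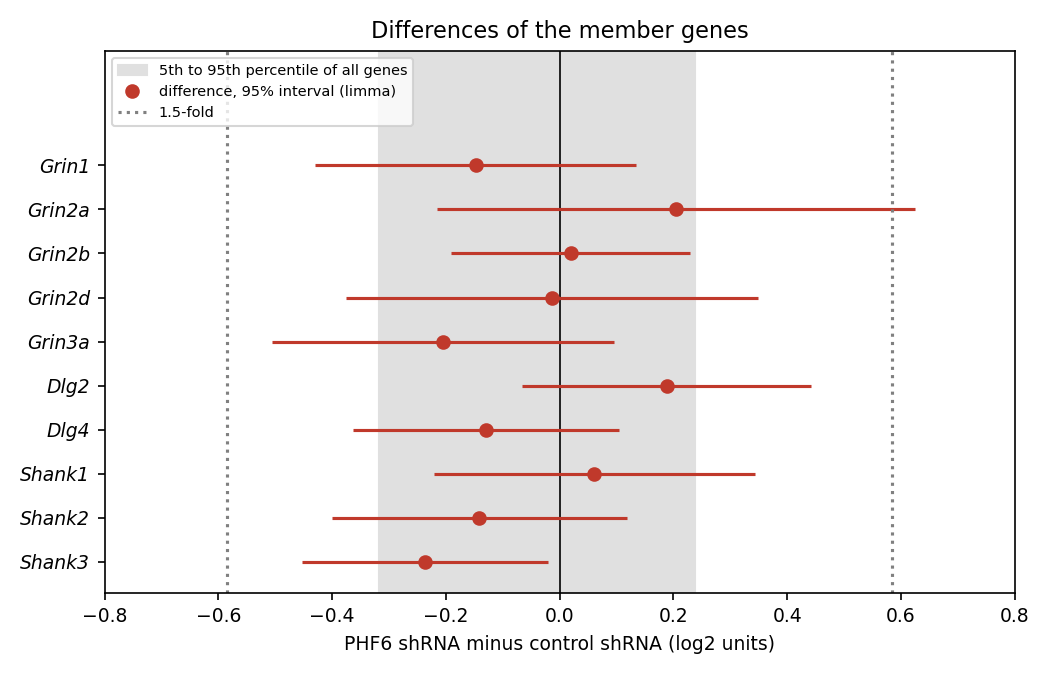
Difference of each gene between PHF6 shRNA and control shRNA (log2 units, horizontal axis) with its 95% interval from limma, beside the 5th to 95th percentile of all genes in grey and dotted lines at 1.5-fold. Every point lies inside the grey band, and the interval of Shank3 alone leaves out 0, without adjustment for the number of genes.

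Dlg2 encodes PSD-93, a scaffold that binds NMDA receptor tails and potassium channels. It read 1084 and 953 on the PHF6 shRNA arrays, against 864 and 921 on the control shRNA arrays. Both PHF6 shRNA arrays were above both control shRNA arrays, with PHF6 shRNA duplicate 1 the highest of the 4. The difference was 0.19 ± 0.10 log2 units, or 1.14-fold (95% interval -0.066 to 0.44, limma adjusted p = 0.63).

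Dlg4 encodes PSD-95, the abundant core scaffold of excitatory synapses. It read 590 and 528 on the PHF6 shRNA arrays, against 606 and 615 on the control shRNA arrays. Both PHF6 shRNA arrays were below both control shRNA arrays, and duplicate 2 was the lowest. The difference was -0.13 ± 0.093 log2 units, or 1.09-fold lower (95% interval -0.36 to 0.11, limma adjusted p = 0.78). It was -0.052 after a further quantile normalization and -0.047 after cyclic loess. Its size therefore depended on the scaling, as did that of several other members, among them Grin1, Grin2b and Shank1. The ratio of Dlg2 to Dlg4 signal within an array was higher by 0.32 log2 units in PHF6 shRNA neurons, by 0.33 on duplicate 1 and 0.30 on duplicate 2 against the control mean. Its SD was 0.020 for PHF6 shRNA and 0.050 for control shRNA (n = 2 each). The pair was set side by side after their opposite directions had been seen, so this is a description with no test.

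The Shank genes encode the scaffold layer below PSD-95. Shank1 read 380 and 408 in PHF6 shRNA neurons, against 347 and 410 in control shRNA neurons. The PHF6 shRNA values fell between the control values, and the difference was 0.061 ± 0.11 log2 units (limma adjusted p = 0.97). Shank2 read 72.9 and 74.2, against 87.4 and 75.3. The groups did not overlap, but control shRNA duplicate 2 lay close to the PHF6 shRNA arrays and control shRNA duplicate 1 stood above the other 3. The difference was -0.14 ± 0.10 log2 units (limma adjusted p = 0.78), and -0.033 without control shRNA duplicate 1.

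Shank3 had intensities of 96.5 and 93.2 in PHF6 shRNA neurons, against 116 and 108 in control shRNA neurons. Both PHF6 shRNA arrays were below both control shRNA arrays, and within each group the duplicates lay closer together than the groups did. The difference was -0.24 ± 0.086 log2 units, or 1.18-fold lower, with a 95% interval from -0.45 to -0.021 (limma unadjusted p = 0.036, adjusted p = 0.42). By size, 14.4% of all genes had a larger difference in either direction. When each array in turn was left out the difference lay between -0.28 and -0.19, and the unadjusted p ran from 0.050 to 0.17.

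Of the 5 members whose groups did not overlap, the RefSeq promoter table (GRCr8 build) held 4 (6 of all 10). The 250 bases before a start site are shown for the 3 scaffold genes among them. Only 1 start site per gene, the first listed, was used, and whether these neurons use it was not tested. Short motifs were searched on both strands. These were the GC box GGGCGG, the core of the cyclic AMP response element TGACG, the TATA box TATAAA and the E-box CANNTG, and capitals mark any match. They occurred in 32.4%, 19.0%, 13.1% and 65.2% of 27457 rat promoters cut to the same length. Dlg2 (chr1:154539421-154539670, plus strand) held 1 E-box and none of the others. Dlg4 (chr10:55239534-55239783, plus strand) and Shank3 (chr7:122448073-122448322, plus strand) held none of the 4. The GC content was 42.4% for Dlg2, 69.2% for Dlg4 and 56.0% for Shank3, against a median of 52.0% over all promoters. The arrays do not measure these regions, and the absence of a match says only that those letters are not in the window.
Dlg2: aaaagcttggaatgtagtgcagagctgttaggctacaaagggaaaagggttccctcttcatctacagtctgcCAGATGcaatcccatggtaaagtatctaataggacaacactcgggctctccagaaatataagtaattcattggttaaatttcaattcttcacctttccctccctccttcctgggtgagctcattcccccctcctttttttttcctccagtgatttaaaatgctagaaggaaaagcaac
Dlg4: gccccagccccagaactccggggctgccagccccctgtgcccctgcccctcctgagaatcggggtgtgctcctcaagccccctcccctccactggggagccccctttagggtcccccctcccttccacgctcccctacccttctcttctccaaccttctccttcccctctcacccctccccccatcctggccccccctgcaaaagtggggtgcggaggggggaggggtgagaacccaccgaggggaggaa
Shank3: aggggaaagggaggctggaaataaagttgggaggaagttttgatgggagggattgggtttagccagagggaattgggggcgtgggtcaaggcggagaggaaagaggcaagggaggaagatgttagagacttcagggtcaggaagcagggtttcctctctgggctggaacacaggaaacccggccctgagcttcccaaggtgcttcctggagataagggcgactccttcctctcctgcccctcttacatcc

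The other NMDA receptor and Dlg genes gave 4 measured genes of 5 listed, and none passed the adjusted threshold. Grin2c, a subunit typical of cerebellum, was below background on all 4 arrays. Dlg1, which encodes SAP97, read 112 and 105 on the PHF6 shRNA arrays, against 73.5 and 105 on the control shRNA arrays. Its low array was control shRNA duplicate 1, and the difference was 0.30 ± 0.18 log2 units (limma adjusted p = 0.67). Dlg3, which encodes SAP102, differed by -0.12 ± 0.098 (limma adjusted p = 0.81) and Dlg5, a more distant family member, by -0.097 ± 0.13 (limma adjusted p = 0.94).

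Partners in the postsynaptic density were measured for 23 of 28 listed genes. None passed the adjusted threshold, 15 were higher and 8 lower, and their median of 0.029 log2 units stood beside -0.0066 for all genes. At an unadjusted p under 0.05 stood 2 higher and 2 lower, where 3.28% of all genes were higher and 7.52% lower at that level. Dlgap3, a linker between PSD-95 and Shank proteins, read 58.9 and 63.2 in PHF6 shRNA neurons, against 84.4 and 73.9 in control shRNA neurons, a difference of -0.37 ± 0.10 (limma adjusted p = 0.32). Cript, a small protein that binds PDZ domains of PSD-95, differed by -0.26 ± 0.091 (limma adjusted p = 0.41). Both were lower on both PHF6 shRNA arrays. Of the 23 partners, 4 were lower and 7 higher on both, beside 21.7% and 16.0% of all genes. Baiap2, the actin-linked Shank partner IRSp53, read 199 and 192, against 160 and 163, a difference of 0.27 ± 0.082 (limma adjusted p = 0.35). Cnksr2, a scaffold that binds PSD-95, differed by 0.30 ± 0.11 (limma adjusted p = 0.41).

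Among genes that act downstream of NMDA receptor calcium entry or on the receptor itself, several had larger differences than any of the 10 members. Of 21 listed, 18 were measured, with 8 higher, 10 lower, a median of -0.088 log2 units and 0 past the adjusted threshold. At an unadjusted p under 0.05, 4 were higher and 1 lower, beside 3.28% higher and 7.52% lower among all genes. Prkca, the alpha form of protein kinase C, read 325 and 313 in PHF6 shRNA neurons, against 168 and 189 in control shRNA neurons, a difference of 0.84 ± 0.097 or 1.79-fold (limma unadjusted p = 2.2e-04, adjusted p = 0.23). Rasgrf1, a calcium-responsive Ras activator that can bind GluN2B, read 212 and 160, against 109 and 108, a difference of 0.77 ± 0.15 (limma adjusted p = 0.24). Camk2a, the alpha subunit of CaM kinase II, differed by 0.57 ± 0.16 (limma adjusted p = 0.32), and Camk2g, its gamma subunit, by -0.34 ± 0.11 (limma adjusted p = 0.37). These 4 were named for their small p, and the arrays of the groups did not overlap for any of them, as for 37.8% of all genes. Whether these genes differ from the members in their response was not tested.

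Receptor trafficking and co-agonist genes were measured for 11 of 13 listed, with 5 higher, 6 lower, a median of -0.0065 log2 units and none past the adjusted threshold. At an unadjusted p under 0.05 stood 1 higher and 2 lower, beside 3.28% higher and 7.52% lower among all genes. Lin7b, a PDZ protein of the complex that carries NMDA receptor vesicles, read 135 and 133 on the PHF6 shRNA arrays, against 102 and 107 on the control shRNA arrays, a difference of 0.36 ± 0.083 (limma adjusted p = 0.26). Its partner Cask differed the other way, by -0.33 ± 0.085, with 651 and 696 against 844 and 844 (limma adjusted p = 0.29). Slc1a4, a transporter of serine and alanine, differed by -0.41 ± 0.10 (limma adjusted p = 0.28). Lin7a, a relative of Lin7b, differed by 0.38 ± 0.21, with PHF6 shRNA duplicate 1 far above the other 3 arrays (limma adjusted p = 0.64).

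**Figure D3:**
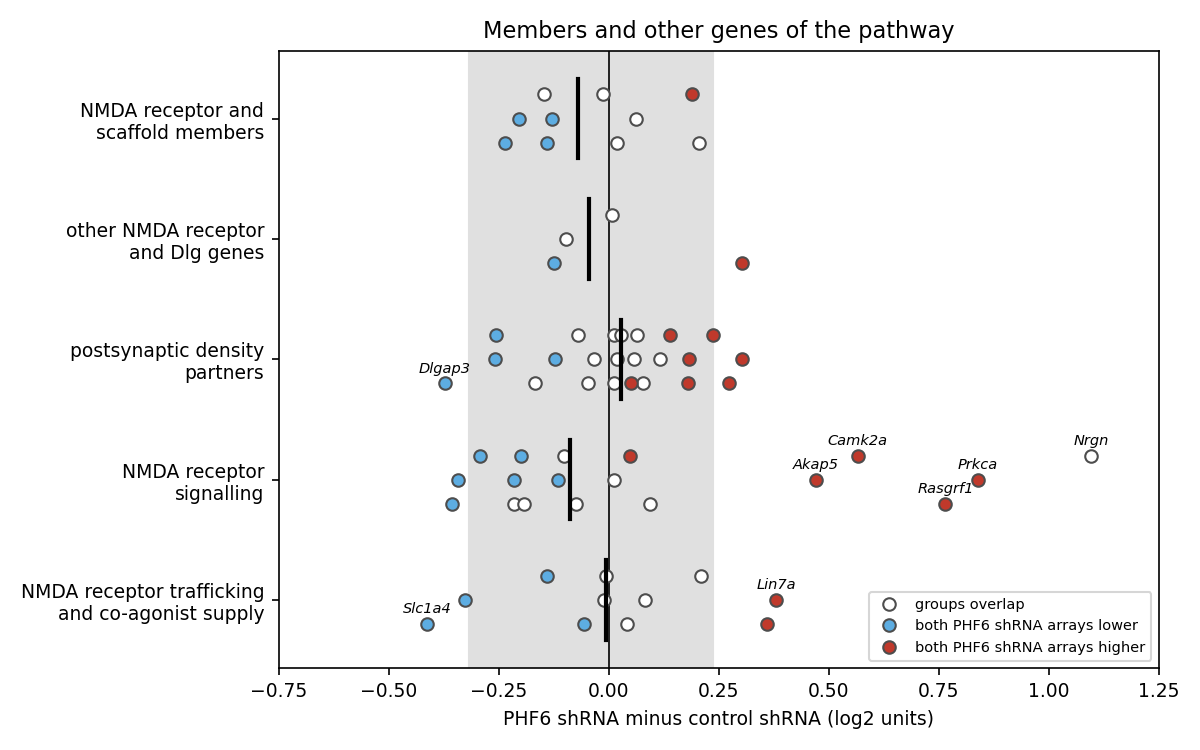
Difference between PHF6 shRNA and control shRNA (log2 units, horizontal axis) of each measured gene of 5 lists, with a black bar at each list's median, filled points where the arrays of the groups do not overlap, and the 5th to 95th percentile of all genes in grey. The member genes all lie inside the grey band, and genes of the other lists lie outside it on both sides, from Slc1a4 at -0.41 to Nrgn at 1.10, whose groups overlap.

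Markers of cell types were read beside these results, since in bulk RNA fewer cells of a type and less RNA per cell cannot be told apart. The summed intensity of 8 neuron markers was 9310 and 9395 on the PHF6 shRNA arrays, against 10433 and 10230 on the control shRNA arrays, and 7 of the 8 were lower. That sum was lower on both PHF6 shRNA arrays. Over all genes, 52.3% were lower. The sum of 9 excitatory neuron markers was 4359 and 4007, against 3922 and 3721, so it was higher on both. Of the 9 genes 7 were higher, 4 of them on both PHF6 shRNA arrays. The smallest p in this list belonged to a gene that went the other way. Slc17a6 differed by -0.69 ± 0.11 log2 units, and its groups did not overlap (limma unadjusted p = 0.0013, adjusted p = 0.23). The sum of 9 GABAergic markers was 4739 and 3861, against 4398 and 3377, with 8 higher. The groups overlapped in this sum and for 5 of the 9 genes. Astrocyte markers, 8 in number, summed to 1141 and 1771, against 808 and 1454, with all 8 higher. In each group the sum was larger on duplicate 2, and the groups overlapped in it. They also overlapped for 6 of the 8 genes, among them Gfap at 0.0094 log2 units. The 2 that did not overlap were Slc1a2, at 0.98, and Aldoc, at 0.61. Oligodendrocyte lineage markers gave 295 and 389, against 314 and 397, and microglia markers 219 and 204, against 222 and 199. Endothelial and fibroblast markers gave 275 and 265, against 272 and 254. No marker gene passed the adjusted threshold, and the part of these markers in the members' differences was not tested.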

How the data were processed

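Total RNA was converted to labelled sense-strand target and hybridised to 1-colour Affymetrix arrays, per the labels' protocols. The authors deposited 1 intensity per probe set; RMA is the tool named in the submitters' processing notes, with no version or settings. Intensities run from 8.57 to 6121, a linear scale, so log2 was taken. Centring could not be checked without scanner files, which were not used here. Of 29214 probe sets, 18644 carry 1 gene symbol in the platform annotation, 962 several and 9608 none there; only the first were named, updated through gene identifiers to RefSeq (18460 matched), and the brightest probe set stood for each of 17245 genes. RMA compresses dim differences. Groups followed the sample titles, 2 arrays each, and limma 3.58.1 (R 4.3.3) compared them (lmFit, eBayes, 2-sided, no covariate, no filter, prior of 3.46 degrees of freedom, Benjamini-Hochberg over all genes, threshold 0.05), after a check on simulated data. The number of arrays limits the precision. Members and lists were chosen with earlier results of these data known. Named were all members, Phf6, the other measured Grin and Dlg genes and up to 4 genes of each further pathway list by smallest p, with Lin7a as the fourth of its list; marker genes named were added after their values were seen. Alternatives were a replicate block, leaving out each array, 3 scalings, 2 filters on dim genes, another variance prior, array weights, the mean of probe sets and all probe sets.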

Additional observations from a re-analysis of the deposited data

How the results depend on the processing

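Over 14 alternatives no member passed the adjusted threshold, and 134 of 139 member values kept their direction. Many of those values could not have turned, so the tally overstates how far direction was tested. The replicate block, the filters on dim genes and the other variance prior left every tested member's difference unchanged. So did array weights, the mean of probe sets and all probe sets. Only leaving out an array and the scalings moved a member's difference. Grin3a was not tested with genes above background on at least 2 arrays. The size of some differences moved with the scaling, beyond that of Dlg4. After a further quantile normalization and after cyclic loess, Grin1 was at -0.064 and -0.058, Shank1 at 0.13 and 0.15, and Grin2b at 0.064 and 0.097. In the same order, Grin2a was at 0.27 and 0.29, Dlg2 at 0.22 and 0.26, Shank2 at -0.12 and -0.10, and Shank3 at -0.20 and -0.17. Grin3a, at -0.21 and -0.22, stayed near its main value. Leaving out 1 array turned the direction of 4 members. Grin2a ran from -0.039 to 0.45 (negative without PHF6 shRNA duplicate 1), Grin2b from -0.021 to 0.060 (negative without PHF6 shRNA duplicate 2), Grin2d from -0.21 to 0.18 (positive without PHF6 shRNA duplicate 2 or control shRNA duplicate 2) and Shank1 from -0.060 to 0.18 (negative without control shRNA duplicate 1). The change in the Grin2a to Grin2b ratio ran from -0.099 (without PHF6 shRNA duplicate 1) to 0.47. The members' median ran from -0.13 to -0.021 when arrays were left out, and was -0.013 with genes above background on at least 2 arrays, where 9 members remained. In that last fit the median over all genes was -0.039, lower than that of the members. After a further quantile normalization and after cyclic loess the members' median was -0.032 and -0.035, against -0.0012 and 0.0034 over all genes. Shank3 lay between -0.28 and -0.17 over all alternatives, with adjusted p from 0.13 to 0.80. Among all genes, leaving out an array gave 0 to 90 past the threshold (90 without PHF6 shRNA duplicate 2, 2 without duplicate 1 of that group); the group left with 1 array was assumed to vary like the other. With the replicate number as a block, 909 genes and 0 members passed. The sample descriptions carry the number after the letters exp, which may mean a shared experiment, but do not state that the numbers pair the arrays; deviations of same-numbered arrays correlated at 0.57 across genes, which is a hint from the data. In that block fit Shank3 had an adjusted p of 0.13 and Grin3a of 0.20. Scanner background and slide were not analysed here. Signal near background limits Grin2d and Grin3a, whose folds may be understated.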
